A study of Mus musculus with 2 samples.

Results

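Respiratory complex I was examined through the mouse genes whose symbol begins with Nduf, which encode its nuclear subunits and a group of its assembly factors. All 44 genes with a probe set annotated to a single such symbol were taken, of 18193 genes read on the array, whatever their values. Where a gene has several probe sets, the one with the highest log2 signal, averaged over the arrays, stands for it. They comprise 34 structural subunits, 8 assembly factors and the pair Ndufa4 and Ndufa4l2.

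The data are 2 Affymetrix expression arrays, 1 for osteoclasts and 1 for macrophages, both grown from bone marrow of C57/Black6 mice aged 8 weeks. Marrow cells were first held in M-CSF (macrophage colony-stimulating factor) for 3 days, and the adherent cells were collected as progenitors of both cell types. Osteoclasts then received M-CSF together with RANKL, the cytokine of osteoclast differentiation, while macrophages received M-CSF alone, for 6 days per the sample labels. The labels give neither the number of animals nor whether both cultures shared them. The sex-linked genes given below show that the cultures came from animals of different sex. Each array reads a whole culture, so fewer cells of a type and less RNA per cell cannot be told apart.

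Complex I is the entry point of the mitochondrial respiratory chain. It takes electrons from NADH in a matrix arm, passes them along iron-sulfur clusters to ubiquinone, and pumps protons through a membrane arm. Osteoclasts are known as cells rich in mitochondria.

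Each group has a single array, so there is no replicate, no test was possible, and values are compared by size. Differences are log2 of osteoclast over macrophage signal, where 1 means 2-fold. Signals were generally lower on the osteoclast array, with a median difference of -0.43 over the 23708 probe sets measured in both arrays. Unless stated otherwise, differences are given relative to this shift, so that 0 is the median probe set, and subtracting 0.43 gives the difference as deposited. A signal was counted as measured from the 40th percentile of its array upwards, which was 14.4 in the osteoclast array and 17.0 in the macrophage array, and dimmer signals were raised to that level. As a yardstick for error, probe sets of one gene scattered around their mean with an SD of 0.49, over 14641 probe sets of 5435 genes. It was 0.27 among probe sets with a signal of at least 500 in both arrays, and holds no variation from culture to culture or from mouse to mouse.

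The labelled cell types were checked on their markers. All 10 osteoclast markers were at least 2-fold higher in the osteoclast array, among them Ctsk, the collagen-degrading cathepsin K, with signals of 9202 in osteoclasts and 134 in macrophages. Of 10 macrophage markers 5 were at least 2-fold lower in osteoclasts, including Adgre1, the F4/80 antigen, with 1107 in osteoclasts and 5919 in macrophages. Granulocyte markers were higher in the osteoclast array in 10 of 12 genes at 2-fold, with summed signals of 6707 in osteoclasts and 3841 in macrophages. Of the 12, Elane, Ctsg and Cd177, which encode granule or surface proteins of neutrophils, were measured in the osteoclast array but not in the macrophage array. All of them were dim in osteoclasts, with 45.6, 35.7 and 37.9. S100a8 was bright in both arrays, with 2133 in osteoclasts and 1266 in macrophages. Of the 12 genes 11 were above the shift, and Mmp8 lay below it, with 276 in osteoclasts and 433 in macrophages (-0.22). Of 8 stromal and osteoblast markers measured, 4 were above the shift, 2 were at least 2-fold higher in osteoclasts and 0 were 2-fold lower, with a median of -0.014. The 2 were Col3a1, with 1255 in osteoclasts and 767 in macrophages, and the dim Dcn, with 37.0 and 15.3. Other collagen genes were bright in both arrays and brighter in macrophages, Col1a2 with 2895 in osteoclasts and 5744 in macrophages and Col1a1 with 1381 and 2078. As deposited, 2 of the 8 were at least 2-fold lower in osteoclasts and 1 was 2-fold higher. Of 6 T and NK lymphocyte markers with a probe set, 4 were measured in neither array, among them Cd3e, Cd3d and Cd3g. The 2 measured were lower in osteoclasts, Il7r with 176 in osteoclasts and 565 in macrophages (-1.25) and the dim Cd8a with 23.2 and 48.7 (-0.64). Of the markers measured, 1 of 3 for B lymphocytes, 2 of 3 for erythroid cells and 2 of 4 for dendritic cells were above the shift. Xist, an RNA of female cells, gave 22.1 in osteoclasts and 1872 in macrophages, and the Y-linked Eif2s3y gave 321 in osteoclasts and 0.57 in macrophages. Kdm5d and Uty, also Y-linked, were measured in the osteoclast array only. These are the signals of male cells in the osteoclast array and of female cells in the macrophage array. The 2 cultures thus came from different animals. The part of the granulocyte and stromal markers and of the sex-linked genes in the results that follow was not tested. Differences between the treatments and between the animals, with their sex, cannot be told apart.

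Nearly all complex I genes lay on the osteoclast side of the array. Of the 44 genes, 41 were above the shift, and their median difference was 0.81, or 1.75-fold. The median of all 13647 genes measured was 0.0041, and 50.3% of them were above the shift. No complex I gene was 2-fold lower, against 6.99% of all genes measured, and 11 were at least 2-fold higher, or 25.0%, against 7.11% of all genes measured. The 11 were Ndufa4, Ndufb10, Ndufb5, Ndufa10, Ndufs1, Ndufaf5, Ndufv1, Ndufb3, Ndufa6, Ndufs8 and Ndufb9, and they belong to both arms of the complex, the assembly factors and the Ndufa4 pair. Ndufaf1 lay just under the 2-fold line at 0.99. Among the 43 genes measured in both arrays, the differences ranged from -0.09 in Ndufaf7 to 1.43 in Ndufa4. These counts include the assembly factors and the Ndufa4 pair. Of the 34 structural subunits alone, 32 were above the shift and 9 were at least 2-fold higher, with a median of 0.84 and a highest value of 1.37.

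The deposited signals, with no correction for the dimmer osteoclast array, show the same side for most of the genes. Of the 44 genes, 33 had the brighter signal in osteoclasts, or 75.0%, whereas 23.4% of all genes measured did. On this scale the median difference of the complex I genes was 0.37, none reached 2-fold (3.0% of all genes measured did), and the closest was Ndufa4 at 0.9997.

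**Figure D1:**
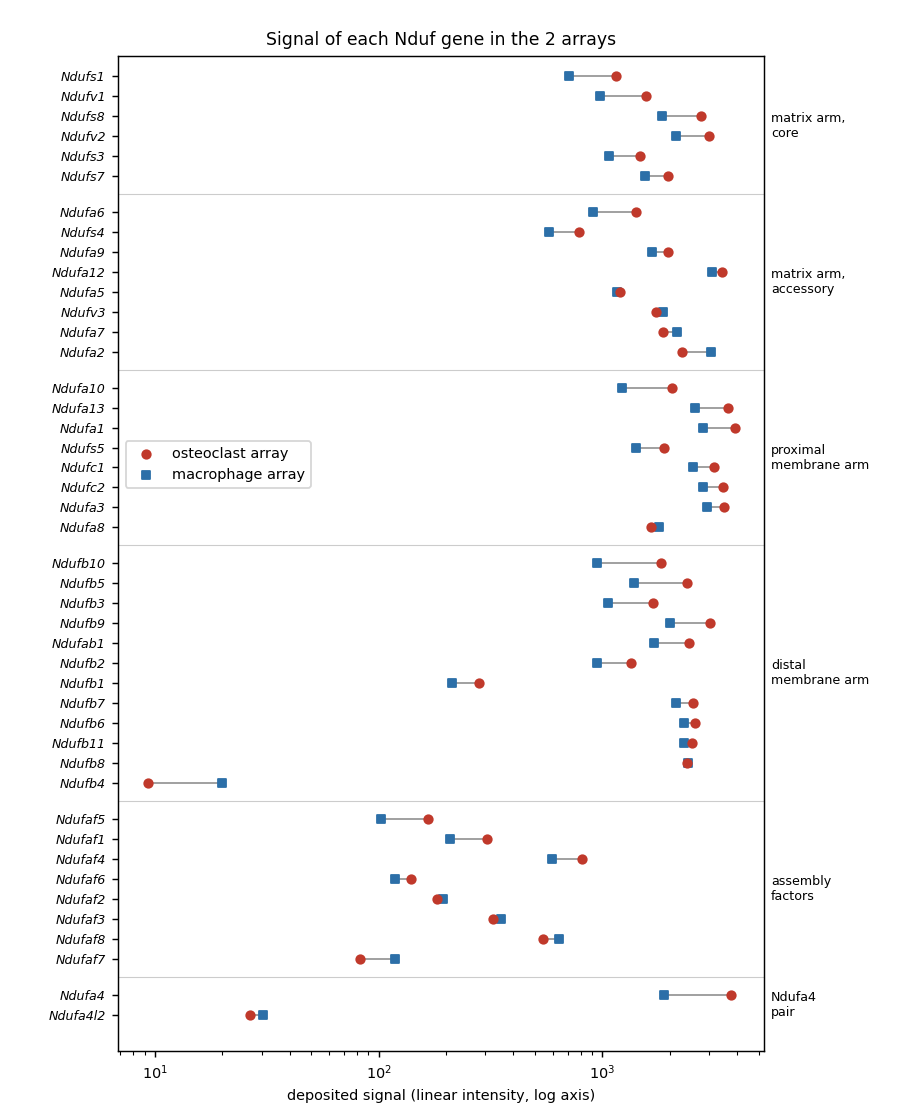
Deposited signals (linear intensity, log axis) of the 44 Nduf genes in the osteoclast array (circles) and the macrophage array (squares), grouped by their place in complex I. In 33 genes the osteoclast circle lies to the right of the macrophage square, and 35 genes have a signal of at least 500 in both arrays.

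Most of these genes were read well above background. In 35 of the 44 the signal was at least 500 in both arrays, from 541 to 3918 in osteoclasts and from 577 to 3100 in macrophages. Among all 2226 genes this bright, 56.4% were above the shift and 4.58% were at least 2-fold higher, and their median difference was 0.073. Of the 35 bright complex I genes 34 were above the shift and 10 were at least 2-fold higher, with a median of 0.86.

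**Figure D2:**
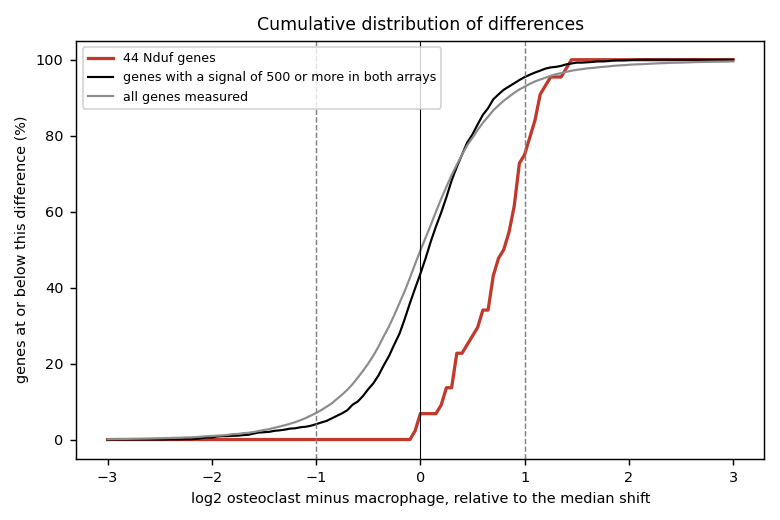
Share of genes (percent) at or below each log2 difference, relative to the median shift, for the 44 Nduf genes, for 2226 genes with a signal of at least 500 in both arrays, and for all 13647 genes measured. The line of the Nduf genes runs to the right of both others over most of its length, with a median of 0.81 for the Nduf genes, 0.073 for the bright genes and 0.0041 for all genes measured, and dashed lines mark 2-fold.

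The core subunits of the matrix arm, which carry the flavin and the iron-sulfur clusters, spanned the narrowest range of the groups, over 6 genes. All 6 that were measured lay between 0.77 and 1.13, with a median of 0.97, and 3 were at least 2-fold higher. Ndufs1, the largest subunit of the complex and the holder of several iron-sulfur clusters, gave 1153 in osteoclasts and 710 in macrophages (1.13). Ndufv1, the flavoprotein at which NADH is oxidised, gave 1572 in osteoclasts and 977 in macrophages (1.12). Its 3 probe sets lay between 1.12 and 1.36. Ndufs8, an iron-sulfur subunit on the way to ubiquinone, gave 2769 in osteoclasts and 1844 in macrophages (1.02). Its other probe sets with a signal of at least 100 in both arrays gave 0.73, 0.82, 0.91 and 1.29. The mean of all 6 probe sets of Ndufs8 gave 0.78, under 2-fold.

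Ndufv2, the iron-sulfur partner of Ndufv1, gave 2990 in osteoclasts and 2140 in macrophages (0.92), and its other probe sets lay at 0.93 and 1.27. Ndufs3, part of the arm that leads to the quinone site, gave 1471 in osteoclasts and 1070 in macrophages (0.89). Ndufs7, which holds the cluster next to ubiquinone, gave 1959 in osteoclasts and 1547 in macrophages (0.77). For all 6 the osteoclast signal was the brighter one as deposited too, with differences from 0.34 to 0.70.

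Accessory subunits of the matrix arm had a median of 0.53 over 8 genes, with 1 at least 2-fold higher. The median depends on the genes and probe sets kept, and was 0.88 over the 5 genes left without probe sets whose name ends in _x_at, _s_at or _a_at (0.89 for the core subunits on that choice). Ndufv3, Ndufa7 and Ndufa2, the lowest of the 8, have only probe sets with such names and drop out. Ndufa12 is then read from a probe set with 22.7 in osteoclasts and 13.5 in macrophages, below the measured level, as a bound of 0.84. The gene at least 2-fold higher was Ndufa6, a LYR-motif protein that binds the mitochondrial acyl carrier protein, with 1407 in osteoclasts and 913 in macrophages (1.06). Ndufs4, whose loss in mice causes a Leigh-like encephalopathy, gave 784 in osteoclasts and 577 in macrophages (0.88). Ndufa9, at the joint between the arms, differed by 0.68, Ndufa12 by 0.58, Ndufa5 by 0.48 and Ndufv3 by 0.33. Ndufa5 is uncertain in size, since its other probe set, with 1003 in osteoclasts and 539 in macrophages, gave 1.33.

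Ndufa7 and Ndufa2, both accessory subunits of the matrix arm, stood low among the complex I genes. Ndufa7 gave 1871 in osteoclasts and 2147 in macrophages (0.23), and all 5 of its probe sets lay between 0.15 and 0.47. Ndufa2, a subunit with a thioredoxin-like fold, gave 2264 in osteoclasts and 3060 in macrophages, a difference of -0.0019 relative to the shift and of -0.43 as deposited. Both were bright in both arrays, and Ndufa2 has 1 probe set only.

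In the part of the membrane arm near the matrix arm, all 8 measured subunits were above the shift, with a median of 0.79. Ndufa10, an accessory subunit with a nucleoside kinase fold, gave 2051 in osteoclasts and 1231 in macrophages (1.17) and was the 1 gene of this group past 2-fold. Ndufa13, also known as GRIM-19, and Ndufa1 both differed by 0.91, Ndufs5 by 0.84, Ndufc1 by 0.74, Ndufc2 by 0.73, Ndufa3 by 0.69 and Ndufa8 by 0.32. Ndufc2 gave 3470 in osteoclasts and 2816 in macrophages. Ndufa8 was the 1 member of this group that was dimmer in osteoclasts as deposited, with 1651 in osteoclasts and 1789 in macrophages.

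The far end of the membrane arm held the 2 largest differences among the structural subunits. The median of 12 genes was 0.89, and 4 were at least 2-fold higher. Ndufb10, a disulfide-bonded subunit facing the intermembrane space, gave 1822 in osteoclasts and 951 in macrophages (1.37). Ndufb5 gave 2380 in osteoclasts and 1392 in macrophages (1.21), with its other probe set at 1.27. Ndufb3 differed by 1.09 and Ndufb9, another LYR-motif protein, by 1.02.

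Ndufab1 encodes the mitochondrial acyl carrier protein, which sits in the matrix arm as well as here and also serves fatty acid synthesis. It gave 2440 in osteoclasts and 1706 in macrophages (0.95). Ndufb2 differed by 0.94, Ndufb1 by 0.84, Ndufb7 by 0.69, Ndufb6 by 0.60 and Ndufb11 by 0.55. Ndufb8 had nearly equal signals, 2402 in osteoclasts and 2409 in macrophages (0.43).

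Ndufb4 could not be judged. Its only probe set with a single symbol gave 9.29 in osteoclasts, below the measured level, and 20.01 in macrophages, so that its value of -0.041 is a bound, and both signals are under the level that 95% of probe sets for odorant and pheromone receptors stay below (25.7 in the osteoclast array and 28.2 in the macrophage array). It was the 1 gene of the 44 that was measured in 1 array only.

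The assembly factors, which build the complex and are not part of it, had a median of 0.51 over 8 genes, with 1 at least 2-fold higher. Ndufaf5, which hydroxylates Ndufs7, gave 166 in osteoclasts and 103 in macrophages (1.13). Ndufaf1, a factor of membrane arm assembly, gave 306 in osteoclasts and 208 in macrophages (0.99). Ndufaf4, which acts early on the quinone-binding part together with Ndufaf3, gave 808 in osteoclasts and 599 in macrophages (0.86), with its other probe set at 0.63.

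Ndufaf6 differed by 0.68, Ndufaf2, a paralogue of Ndufa12, by 0.34 and Ndufaf3 by 0.32. Ndufaf8, the partner of Ndufaf5, gave 541 in osteoclasts and 637 in macrophages (0.20). Ndufaf7, a mitochondrial methyltransferase, gave 82.5 in osteoclasts and 119 in macrophages, the lowest difference among the 43 complex I genes measured in both arrays (-0.092). As deposited 4 of the 8 factors were brighter in osteoclasts and 4 were dimmer.

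Ndufa4, named as a complex I subunit but now assigned to cytochrome c oxidase, had the largest difference of the 44 genes. It gave 3777 in osteoclasts and 1889 in macrophages (1.43, or 2.70-fold). Its paralogue Ndufa4l2, known as a hypoxia-induced gene, was dim in both arrays, with 26.7 in osteoclasts and 30.5 in macrophages (0.24), close to the receptor level given above. Both genes were read from 1 probe set each.

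**Figure D3:**
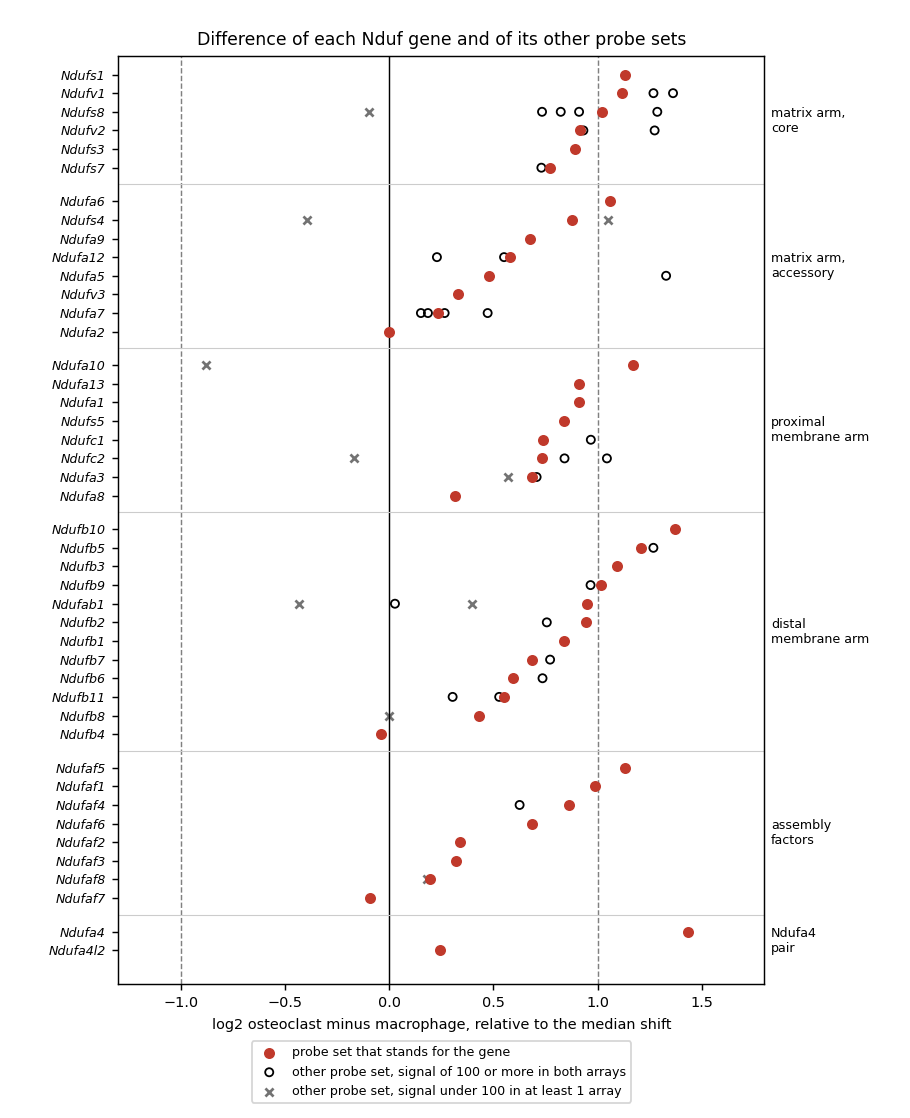
Log2 difference, osteoclast minus macrophage and relative to the median shift, of each Nduf gene (filled circles) and of its other probe sets measured in both arrays (open circles, or crosses where a signal was under 100). Dashed lines mark 2-fold, 41 of 44 filled circles lie above 0, and most probe sets at or below 0 are crosses; the filled circle of Ndufb4 is a bound.

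Further probe sets gave a check on these values within each gene. Of the 88 probe sets with a single Nduf symbol, 82 were measured in both arrays and 74 of these were above the shift. Among the 29 that had not been chosen to stand for a gene and had a signal of at least 100 in both arrays, all were above the shift, with a median of 0.76 and a range from 0.027 to 1.36. Probe sets of a gene share its transcript and the same 2 RNA samples, so they say nothing about other cultures.

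Of 22 genes with several probe sets measured in both arrays, 16 had all of them on the same side of the shift and 6 did not. In Ndufa10 the second probe set gave 16.2 in osteoclasts and 40.3 in macrophages (-0.88). In Ndufs8 the values of 6 probe sets lay between -0.096 and 1.29, in Ndufs4 between -0.40 and 1.05, in Ndufc2 between -0.17 and 1.04 and in Ndufab1 between -0.43 and 0.95. In Ndufb8 the second probe set, with 37.7 in osteoclasts and 51.0 in macrophages, gave -0.0035. In each of these 6 genes the probe sets at or below the shift were dim, with a signal under 100 in at least 1 array. Of the 12 such dim probe sets of complex I genes, 5 were above the shift and 7 were at or below it.

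Complex I also holds subunits encoded by the mitochondrial genome, of which ND5, a proton-pumping subunit of the membrane arm, was the 1 of 7 listed with a single-symbol probe set. Its signal was 6685 in osteoclasts and 2665 in macrophages, a difference of 1.76 relative to the shift and 1.33 as deposited. This is larger than the difference of any of the 44 nuclear genes. No replicate or second probe set bears on it.

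Assembly genes without an Nduf symbol formed a more scattered group. Of 12 measured, 8 were above the shift and none differed by 2-fold in either direction, with a median of 0.48. Acad9 (0.90) and Ecsit (0.84), partners of Ndufaf1 in membrane arm assembly, lay highest. Timmdc1 (-0.21) and Tmem126b (-0.37), also membrane arm factors, lay below the shift. Dmac1, a factor of the far membrane arm, was lowest, with 605 in osteoclasts and 1372 in macrophages (-0.75). As deposited, Dmac1 differed by -1.18 and was thus at least 2-fold lower on that scale.

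The other respiratory complexes, read from short lists of their main nuclear genes, were on the same side. The list of complex II includes its assembly factors Sdhaf1 (0.42) and Sdhaf2 (0.83). The median was 0.89 for complex II over 6 genes, 1.11 for complex III over 9, 0.61 for complex IV over 10 and 0.69 for complex V over 15. All 40 of these genes were above the shift, and 12 were at least 2-fold higher. The tricarboxylic acid cycle, which supplies complex I with NADH, had a median of 1.06 over 13 genes, with 7 at least 2-fold higher. The median of complex I lay inside this span, and the difference between the lists was not tested. Uqcrfs1, the Rieske iron-sulfur protein of complex III, differed more than any nuclear complex I gene, with 2701 in osteoclasts and 1022 in macrophages (1.83).

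**Figure D4:**
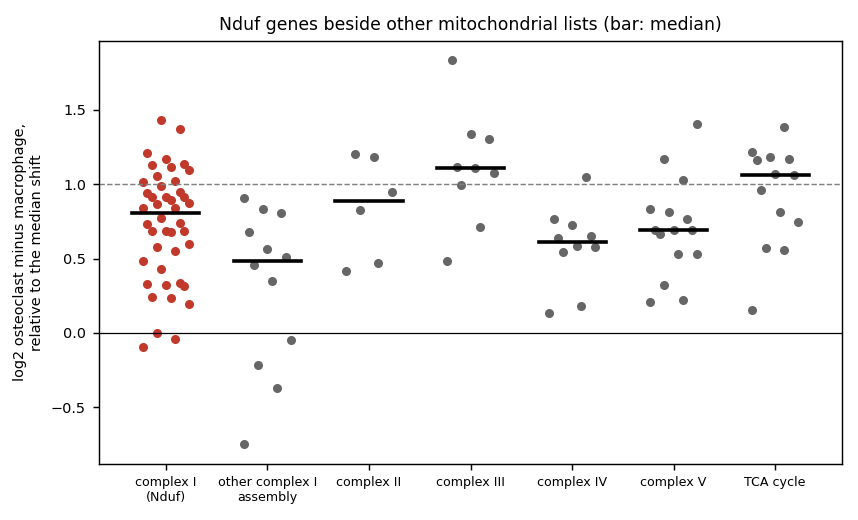
Log2 difference, osteoclast minus macrophage and relative to the median shift, of single genes (points) with the median (bar) for the 44 Nduf genes, 12 other complex I assembly genes, complexes II to V and the tricarboxylic acid (TCA) cycle. The median of the Nduf genes, 0.81, lies between those of complex IV (0.61) and complex III (1.11), and the dashed line marks 2-fold.

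The X-linked members, Ndufa1 and Ndufb11, differed by 0.91 and 0.55, inside the range of the 42 autosomal ones, whose median was 0.81. The 2 arrays differ in X-linked and Y-linked signals as given above.

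Because nearly all of the genes lay on one side of the shift, their promoters were searched for 4 motifs of factors known to bind promoters of respiratory genes. The windows were those of RefSeq, build GRCm38.p6, with 250 bases before and 50 after each start site, and 39 of the 44 genes had one. Both strands were searched. GCGCANGCG of NRF1 matched in 8 genes (20.5%, against 13.8% of 10960 genes measured and 7.03% of all 27025 genes with a window), CCGGAAG of the ETS family in 6 (15.4%, against 18.2% and 9.93%), AAGATGGCG of YY1 in 5 (12.8%, against 3.15% and 1.64%) and AAGGTCA, the half-site of the ERR receptors, in 3 (7.69%, against 4.16% and 5.38%). NRF1 matches overlapped each other in Ndufaf4 and Ndufaf5. The 5 genes with the YY1 letters were Ndufa9, Ndufaf8, Ndufc1, Ndufs4 and Ndufs7, and every match lay within the first 50 transcribed bases.

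The median was 0.84 over the 19 genes with a match to any of the 4 motifs and 0.79 over the 20 without one. The 19 are 48.7% of the complex I genes with a window, against 33.6% of the genes measured. By motif, the medians with and without a match went both ways. They were 0.85 and 0.77 for NRF1, 0.79 and 0.84 for ETS, 0.74 and 0.85 for YY1, and 0.84 and 0.81 for the ERR half-site. The windows of the 2 genes with the largest differences and of Ndufs3 and Ndufs5, which hold 2 matches each, serve as examples, each shown 5′ to 3′ on the gene's strand from 250 bases before the start site to 10 after it, with matches in capitals. Ndufa4, at chr6:11907441-11907700 on the minus strand, holds none, and Ndufb10, at chr17:24724414-24724673 on the minus strand, holds the NRF1 letters across its start site. Ndufs3, at chr2:90904712-90904971 on the minus strand, holds the ETS letters on each strand, 27 bases before the start site and from the second transcribed base onwards. Ndufs5, at chr4:123718177-123718436 on the minus strand, holds the ERR half-site 228 bases and the NRF1 letters 98 bases before the start site.
Ndufa4: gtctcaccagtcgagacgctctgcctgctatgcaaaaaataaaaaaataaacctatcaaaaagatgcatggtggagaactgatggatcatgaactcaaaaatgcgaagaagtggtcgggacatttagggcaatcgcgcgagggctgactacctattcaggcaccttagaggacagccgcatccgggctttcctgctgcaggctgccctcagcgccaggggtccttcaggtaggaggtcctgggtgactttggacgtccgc
Ndufb10: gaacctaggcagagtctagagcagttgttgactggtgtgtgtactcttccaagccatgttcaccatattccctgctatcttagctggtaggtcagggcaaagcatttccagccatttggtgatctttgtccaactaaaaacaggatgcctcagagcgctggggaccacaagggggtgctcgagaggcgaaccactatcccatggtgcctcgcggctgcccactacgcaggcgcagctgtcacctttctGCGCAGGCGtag
Ndufs3: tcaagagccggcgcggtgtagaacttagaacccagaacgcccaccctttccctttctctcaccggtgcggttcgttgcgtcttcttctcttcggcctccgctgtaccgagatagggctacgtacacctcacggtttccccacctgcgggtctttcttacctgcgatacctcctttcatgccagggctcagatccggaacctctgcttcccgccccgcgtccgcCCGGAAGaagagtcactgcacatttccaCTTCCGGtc
Ndufs5: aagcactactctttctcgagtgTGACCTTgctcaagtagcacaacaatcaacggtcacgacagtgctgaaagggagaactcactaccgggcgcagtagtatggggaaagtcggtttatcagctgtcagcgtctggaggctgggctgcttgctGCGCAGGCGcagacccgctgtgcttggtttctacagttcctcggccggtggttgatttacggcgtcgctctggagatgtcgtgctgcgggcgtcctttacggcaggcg
A match is a run of letters and not a measured site, and a window without one says only that these letters are missing from it.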

How the data were processed

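In all, 2 arrays were compared, 1 of osteoclasts and 1 of macrophages. The deposited table lists 45101 probe sets with 1 linear intensity per array. Per the labels' protocols, 1 µg of total RNA went into a one-cycle Affymetrix labelling with biotin. The steps by which the authors condensed and scaled the intensity values were not given in the sources used here. The 64 control probe sets were left out. Only the 34945 probe sets with 1 gene symbol in the platform annotation of GEO were used, and all 44 complex I symbols matched the RefSeq gene table of GRCm38.p6 by gene identifier. Floor, shift and choice of probe set are given above.

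The steps were run in Python 3.11.15 with pandas 2.3.3 and were tested on simulated data. With 1 array per group no test was made, and the number of arrays limits the precision. Signals were printed for the core subunits, the 5 highest and 5 lowest differences, genes measured in 1 array only and genes with probe sets on both sides of the shift, and for some others chosen after their values were seen. The members, gene lists and promoter motifs were chosen with earlier results of these data known. Alternatives changed the scale, the floor and the choice of probe set.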

Additional observations from a re-analysis of the deposited data

How the results depend on the processing

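The choice of scale had the largest effect. As deposited, with no centring on the shift, the median of the complex I genes was 0.37 in place of 0.81, that of the matrix arm core 0.53 in place of 0.97 and that of the far membrane arm 0.46 in place of 0.89, and 0 genes in place of 11 were at least 2-fold higher. This follows from the construction of that scale, which lowers every measured difference by 0.43. Under the 6 other alternatives (quantile normalization, lowess centring on brightness, floors at the 30th and 60th percentiles, the mean of all probe sets of a gene, and leaving out probe sets whose name ends in _x_at, _s_at or _a_at) the median of the complex I genes ran from 0.74 to 0.88 and the count of genes at least 2-fold higher from 8 to 12. The last of these left 35 genes, and 32 of them were above the shift, with a median of 0.88 in place of 0.53 for the accessory matrix arm, 0.89 in place of 0.97 for its core and 0.74 in place of 0.89 for the far membrane arm. Single genes moved by more than the probe set SD in 7 cases, none of which turned the sign of a gene past 2-fold. With the mean of all probe sets Ndufa10 came to 0.14, Ndufab1 to -0.069 and Ndufb9 to 1.56. These means include dim probe sets, with 16.2 in osteoclasts and 40.3 in macrophages for Ndufa10. For Ndufab1 they include 10.6 in osteoclasts and for Ndufb9 3.94 in macrophages, both below the measured level. The probe sets of Ndufb9 measured in both arrays gave 0.97 and 1.02. With the probe sets named _x_at, _s_at or _a_at left out Ndufa5 came to 1.33, Ndufab1 to 0.027 and Ndufb2 to -0.056. That value of Ndufb2 is a bound, from a probe set with 12.2 in osteoclasts, below the measured level, and 20.2 in macrophages. Ndufb4 came to -0.69 with the floor at the 30th percentile. No paired analysis was possible because each group has 1 array. With the probe sets that stand for the genes, signals near the floor limit Ndufb4 and Ndufa4l2.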

Other observations

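Among enzymes that share NADH or ubiquinone with complex I, values went both ways. Coq9, needed for ubiquinone synthesis, gave 464 in osteoclasts and 218 in macrophages (1.52), Coq7 differed by 1.37 and Etfdh, which feeds electrons from fatty acid oxidation to ubiquinone, by 1.35. Nnt, the transhydrogenase that passes electrons from NADH to NADP, was lower in osteoclasts, with 207 in osteoclasts and 1217 in macrophages (-2.12) and with a second measured probe set at -1.47. For Nnt too, a difference between the animals cannot be told apart from one between the treatments. Of the 9 genes in this list 6 were above the shift, 3 were at least 2-fold higher and 1 was at least 2-fold lower.

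Besides the probe sets used here, 10 carry an Nduf symbol together with another symbol, so that their signal cannot be given to 1 gene. Of these 7 were measured in both arrays, and all 7 were above the shift, between 0.0012 and 1.05 with a median of 0.58.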
